A study of Mus musculus with 6 samples.

Results

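The genes described here encode the core of the NF-kappaB pathway. Among them are 4 subunits of the transcription factor (Nfkb1, Nfkb2, Rela and Relb). The others are 4 genes of the IkappaB family, grouped here as inhibitors (Nfkbia, Nfkbib, Nfkbie and Nfkbiz), and the catalytic kinases of the IKK complex (Chuk and Ikbkb). All were taken by gene symbol, and all 10 were found among the 18159 genes of the table. RNA was sequenced from mouse intestinal epithelial cells in 6 libraries, 3 titled wild type (WT) and 3 titled Git2-knockout. The genotype field calls the second group Git2 knockdown, so it is named here as the libraries labelled Git2-knockout. The design text describes all samples as enteroids, epithelial organoids grown from intestinal crypts, of mice aged 12 days. No treatment, strain or altered part of Git2 is stated, and the labels are silent on whether each library had its own animal or culture, so the spread behind the p-values may be technical.

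NF-kappaB dimers are held in the cytoplasm by IkappaB proteins. When the IKK complex phosphorylates an IkappaB, the inhibitor is ubiquitinated and degraded, and the dimer enters the nucleus and switches on genes that include its own inhibitors. In the canonical branch IKK-beta, encoded by Ikbkb, frees dimers of RelA and the Nfkb1 product, while in the alternative branch IKK-alpha, encoded by Chuk, triggers processing of the Nfkb2 product, the partner of RelB. In the intestinal epithelium the pathway is known for barrier defence and for cell survival during inflammation.

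Because NF-kappaB acts on genes of its own pathway, the promoter sequences of the members are shown first. RefSeq (GRCm38.p6) gave a promoter window, 250 bases before to 50 after a start, for 6 of the 10 genes, with 3 windows for Nfkb2. On both strands, 3 of these 6 genes held the NF-kappaB consensus motif, namely Nfkbia, Nfkbie and Nfkb2, against 5.1% of the 27025 genes with a window. A looser motif, 3 G, any 5 bases and 2 C, which includes every match of the consensus, was found in 5 of the 6 genes and in 53.5% of all genes. Rela and Chuk held only the looser motif, and Nfkbib held neither. The 250 bases before the start are printed 5′ to 3′ for the genes with the consensus, which is in capitals, and for Chuk, the member with the largest difference between the groups, for contrast. They lie at chr12:55492648-55492897 on the minus strand (Nfkbia), chr17:45555450-45555699 on the plus strand (Nfkbie), chr19:46304487-46304736 on the plus strand (the most upstream start of Nfkb2) and chr19:44107478-44107727 on the minus strand (Chuk).
Nfkbia: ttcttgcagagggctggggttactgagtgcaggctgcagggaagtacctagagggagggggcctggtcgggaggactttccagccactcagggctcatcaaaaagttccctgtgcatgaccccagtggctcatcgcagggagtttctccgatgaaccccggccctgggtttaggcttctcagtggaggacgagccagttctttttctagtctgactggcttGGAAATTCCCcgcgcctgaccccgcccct
Nfkbie: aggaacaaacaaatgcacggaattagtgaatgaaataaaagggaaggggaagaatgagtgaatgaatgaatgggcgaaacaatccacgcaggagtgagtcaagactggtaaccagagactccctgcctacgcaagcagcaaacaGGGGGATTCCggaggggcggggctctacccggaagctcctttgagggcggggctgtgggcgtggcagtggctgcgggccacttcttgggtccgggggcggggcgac
Nfkb2: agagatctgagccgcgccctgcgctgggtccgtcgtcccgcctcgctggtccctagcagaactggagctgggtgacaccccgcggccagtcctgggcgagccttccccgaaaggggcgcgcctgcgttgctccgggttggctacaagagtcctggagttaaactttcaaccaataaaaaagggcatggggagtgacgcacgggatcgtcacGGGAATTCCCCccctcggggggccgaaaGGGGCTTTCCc
Chuk: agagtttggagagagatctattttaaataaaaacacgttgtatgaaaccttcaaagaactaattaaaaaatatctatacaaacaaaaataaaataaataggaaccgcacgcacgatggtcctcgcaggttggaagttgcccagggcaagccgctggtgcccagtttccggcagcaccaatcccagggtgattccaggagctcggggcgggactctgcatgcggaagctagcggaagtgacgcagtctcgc
The Nfkbia match starts at position -29 from the start site, the Nfkbie match at -106, and those of this Nfkb2 window at -39, -38 and -11. A match describes letters and does not show that the factor binds there.

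Library totals ran from 16284414 to 19106581 estimated reads. Git2, a scaffold protein of the GIT-PIX complexes, was at 22.2, 23.7 and 22.7 CPM in WT and at 17.4, 15.5 and 16.8 CPM in the libraries labelled Git2-knockout. CPM are reads per 1000000 reads of a library, here scaled by TMM factors. Git2 RNA was thus 27.7% lower by edgeR, and because the labels do not say which part of Git2 was altered, this does not check them. Epithelial markers were abundant, with the 7 listed genes (among them Epcam at 2500 ± 15.1 and 2510 ± 90.8 CPM, SD, n = 3 each, and the keratin Krt8) summing to 8070 to 8370 TPM over all libraries. TPM are transcripts per 1000000, a scale per transcript length. By edgeR's test, described below, 5 of the 7 epithelial genes fell, among them Krt8 (2260 ± 104 to 1840 ± 41.8 CPM), and 0 rose. Over all tested genes 27.4% fell and 29.6% rose. With length and GC trends removed, also described below, 3 fell and 2 rose, with Epcam called higher (log2 fold change 0.19, edgeR adjusted p = 3.6e-06). Markers of other cells were far lower and also moved with the groups. Fibroblast and smooth muscle genes summed to 10.9 to 12 TPM in WT and 35.4 to 40.2 TPM in the other libraries, where 8 of 9 rose, and endothelial genes to 15.1 to 15.5 and 35.2 to 39.5 TPM, where 7 of 7 rose. B cell genes summed to 22.2 to 22.5 and 9.1 to 10.5 TPM, and 7 of 7 fell. Macrophage and dendritic cell genes summed to 158 to 159 and 125 to 128 TPM. Of 8 tested, 3 rose and 1 fell, Csf1r, from 197 ± 2.49 to 90.7 ± 0.992 CPM. Csf1r was by far the highest of them in CPM, so the sum does not stand for the rest. The next highest, Cd68, was at 14.5 ± 1.16 and 15.9 ± 1.36 CPM (edgeR adjusted p = 0.193). Cd68 was called higher with both trends removed (log2 fold change 0.40, edgeR adjusted p = 0.000359). The sums of T cell genes (4.4 to 5.13 and 4.48 to 5.69 TPM) and neutrophil genes (1.71 to 2.84 and 1.77 to 2.18 TPM) overlapped between the groups. Of 3 tested T cell genes 0 rose and 1 fell, Lck (edgeR adjusted p = 0.0471, and 0.196 with length and GC trends removed). Of 2 tested neutrophil genes 0 were called. Defining markers of both cell types were near 0, with 0 to 7 reads per library for Cd3d, Cd3e and Cd3g and 0 to 3 for S100a8, S100a9, Ly6g and Mpo. The part of these markers in the results below was not tested, and in bulk RNA fewer cells of a type cannot be told from less RNA per cell.

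Per transcript length, the RNA of the inhibitor Nfkbia, which encodes IkappaB-alpha, was the most abundant of the pathway. In WT libraries it was at 333, 335 and 333 TPM, above 96.4% of tested genes. Nfkbiz, which encodes the nuclear IkappaB-zeta, a cofactor for a subset of NF-kappaB targets, followed at 72.8 ± 1.36 TPM, and Chuk at 51.5 ± 1.78 TPM (SD, n = 3). Rela (47.3 ± 0.926 TPM), Nfkbib (45.8 ± 0.742 TPM), Nfkb2 (42.7 ± 1.80 TPM), Relb (41.4 ± 3.35 TPM), Ikbkb (34.4 ± 0.958 TPM) and Nfkb1 (33.7 ± 0.220 TPM) lay close together. Within this order the ranges of Rela and Nfkbib overlapped, as did those of Nfkb2 and Relb and those of Ikbkb and Nfkb1. Nfkbie, which encodes IkappaB-epsilon, was lowest at 5.34 ± 0.135 TPM. In the libraries labelled Git2-knockout the places of Nfkbia, Nfkbiz, Chuk, Ikbkb and Nfkbie were the same. Nfkbib moved from the fifth place to the ninth, at 39.5 ± 4.04 TPM, where its range overlapped that of Ikbkb (39.6 ± 2.04 TPM). The ranges of Nfkb1 and Ikbkb overlapped there as well, as did those of Nfkb2 and Rela.

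**Figure D1:**
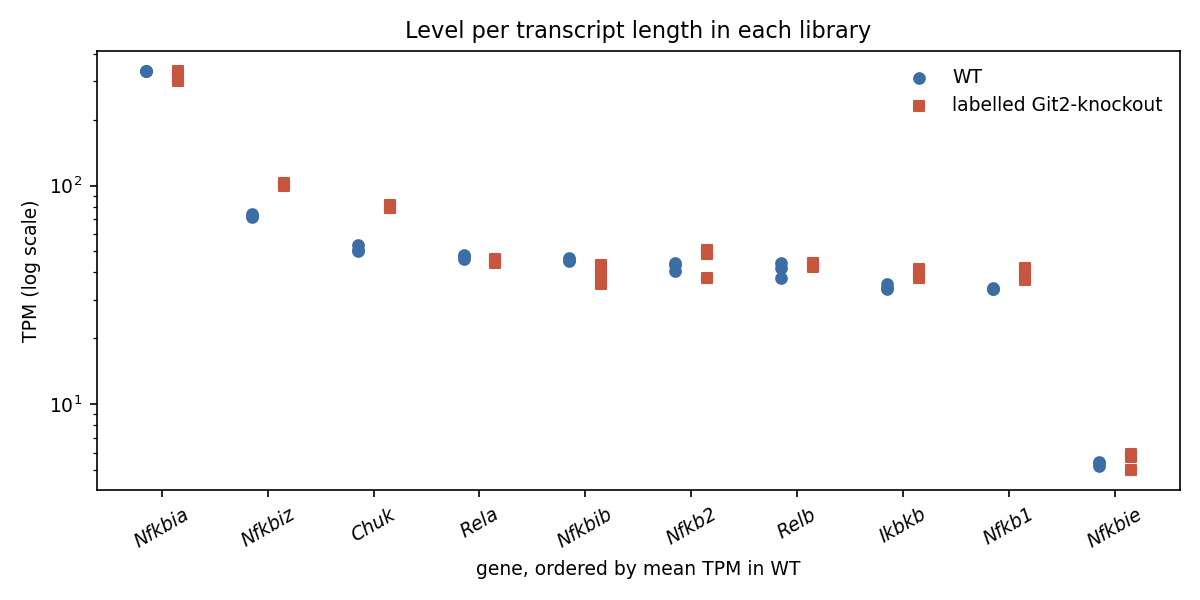
TPM on a log axis for each gene, ordered by the WT mean. Each point is a library, with WT as circles and the libraries labelled Git2-knockout as squares. Nfkbia stands above the rest and Nfkbie below, and the squares of Nfkbiz and Chuk lie above their circles.

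Of the 10 genes, Chuk and Nfkbiz rose and Rela, Nfkbia and Nfkbib fell in the libraries labelled Git2-knockout, by edgeR's quasi-likelihood test at a Benjamini-Hochberg adjusted p of 0.05 over all genes tested. That is 5 of 10 called, where 57% of the 13558 tested genes were called. Rises took 2 of 10 against 29.6% of all genes, and falls 3 of 10 against 27.4%. The groups did not overlap in 6 of the 10 genes, against 62.9% of all genes. The members' share of calls was therefore near that of the whole table and is not a result about the pathway. Their median log2 fold change was -0.04, and that of all tested genes 0.02. With Git2-knockout replicate 1 left out, the library that differed most from its own group, 3 of the 10 genes rose and 3 fell. In that fit 4082 of 13814 tested genes rose and 4261 fell. Fold changes of all genes in these libraries also followed transcript length and GC content, so values with those trends removed, by a smooth curve fitted in each library, are given for the members and for other genes whose call they change.

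**Figure D2:**
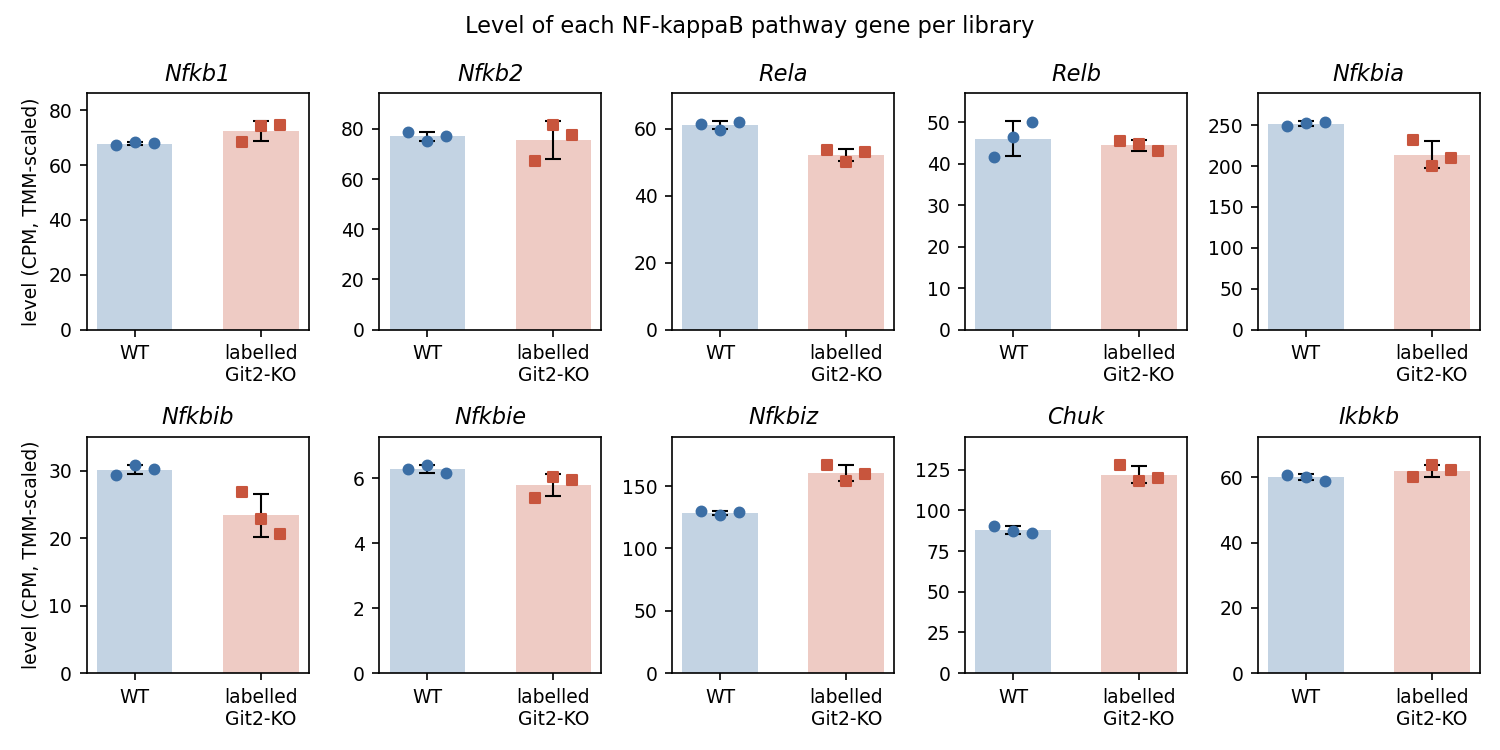
TMM-scaled CPM of the 10 genes, with bars for the mean of 3 libraries, error bars for the SD and points for single libraries, and each axis starting at 0. All Chuk and Nfkbiz squares lie above the WT circles, and all Rela, Nfkbia, Nfkbib and Nfkbie squares lie below.

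Among the kinases, Chuk rose and Ikbkb did not pass the test. Chuk was at 90.6, 87.2 and 86.3 CPM in WT and at 128, 118 and 120 CPM in the libraries labelled Git2-knockout. Every one of the latter was above every WT library. The rise was 38.6%, a log2 fold change of 0.47 (SE 0.05, 95% interval 0.37 to 0.57, edgeR adjusted p = 4.7e-07). Ikbkb was at 60.8, 60.2 and 59 CPM in WT and at 60, 63.7 and 62.1 CPM in the other libraries, and the groups overlapped. Its log2 fold change was 0.05, with a 95% interval of -0.06 to 0.15 (edgeR adjusted p = 0.447), and on the log2(TPM + 1) scale it was 0.20 (limma-trend adjusted p = 0.00955). Taken within each library, which removes library scaling, the ratio of Chuk to Ikbkb TPM was 1.51, 1.49 and 1.49 in WT and 2.17, 1.89 and 2.01 in the other libraries. That ratio did not overlap between the groups and was highest in replicate 1 of the libraries labelled Git2-knockout. It keeps the trends with length and GC content, and Chuk has 44.4% GC where Ikbkb has 52%. With both trends removed, the log2 fold changes of Chuk and Ikbkb were 0.18 and -0.03. Ikbkg, the regulatory subunit NEMO that joins the kinases, was at 44.9 ± 1.72 and 52.1 ± 3.22 CPM (SD, n = 3 each) and rose by 16% (edgeR adjusted p = 0.00457), although its log2 fold change turned from 0.21 to -0.09 with the transcript length trend removed (adjusted p = 0.103).

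Among the subunits Rela fell, and the other 3 did not pass the test. Rela, the main activating subunit of the canonical branch, was at 61.3, 59.7 and 62 CPM in WT and at 53.5, 50.2 and 52.9 CPM in the libraries labelled Git2-knockout. The groups did not overlap, and Rela fell on the log2 scale by 0.22 (SE 0.05, edgeR adjusted p = 0.00117). Nfkb1 was at 67.2, 68.4 and 68 CPM in WT and at 68.3, 74.3 and 74.6 CPM in the other libraries, where replicate 1 lay within the WT range. Its log2 fold change of 0.09 (95% interval -0.01 to 0.20, edgeR adjusted p = 0.121) passed the threshold without that library (0.11, adjusted p = 0.0352), with the GC trend removed (0.12, 0.0497; with both trends removed -0.01, 0.836) and in limma-trend on log2(TPM + 1) (0.25, adjusted p = 0.00412).

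The subunits of the alternative branch overlapped between the groups. Nfkb2 was at 78.6, 75.3 and 77 CPM in WT and at 67.1, 81.6 and 77.7 CPM in the other libraries, with replicate 1 the lowest of all. Its log2 fold change was -0.03 (95% interval -0.16 to 0.10, edgeR adjusted p = 0.724), and -0.15 with the length trend removed (adjusted p = 0.0192). Relb spread most within WT, at 41.7, 46.5 and 49.9 CPM, and was at 45.5, 44.8 and 43 CPM in the other libraries, a log2 fold change of -0.05 (95% interval -0.19 to 0.08, edgeR adjusted p = 0.493). The transcript length that the authors' counts and FPKM imply for Relb was 2235 to 2257 bases in WT and 2323 to 2341 bases in the other libraries. For Nfkb2 it was 3570 to 3740 and 3653 to 3897 bases, with the longest in replicate 1 of the libraries labelled Git2-knockout. Reads of Nfkb2 may also include those of Psd, an overlapping gene counted at 392 to 436 reads per library, since the strand setting is not given. The ratio of Nfkb2 plus Relb to Nfkb1 plus Rela, in TPM, was 1.04 ± 0.0389 in WT and 1.04 ± 0.0562 in the other libraries (SD, n = 3 each).

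Of the remaining subunit and coactivator genes in the family, Rel, the c-Rel subunit best known from lymphocytes, rose from 27.7 ± 2.20 to 36.4 ± 1.25 CPM (log2 fold change 0.39, edgeR adjusted p = 7.24e-05). Once trends of fold change with transcript length and GC content were taken out, it was called lower, at -0.18 (edgeR adjusted p = 0.0126). Bcl3, a nuclear IkappaB protein that binds Nfkb1 and Nfkb2 products, fell from 53.8 ± 1.40 to 45.4 ± 0.306 CPM (edgeR adjusted p = 0.000551), and lay at -0.015 without those trends (0.803). Nfkbid, another nuclear IkappaB gene, fell from 6.67 ± 0.657 to 4.73 ± 0.228 CPM (edgeR adjusted p = 0.0023, and 0.0503 without those trends).

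Of the inhibitors, Nfkbia and Nfkbib fell, Nfkbiz rose and Nfkbie did not pass the test. Nfkbia was at 249, 253 and 254 CPM in WT and at 232, 200 and 210 CPM in the libraries labelled Git2-knockout. The groups did not overlap in CPM, and Nfkbia fell on the log2 scale by 0.24 (SE 0.05, edgeR adjusted p = 0.000672). In TPM it was at 333, 335 and 333 in WT and at 334, 302 and 313 in the other libraries, where replicate 1 reached the WT range.

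Nfkbib, which encodes IkappaB-beta, was at 29.4, 30.8 and 30.3 CPM in WT and at 26.9, 22.8 and 20.6 CPM in the other libraries. It had the largest fall of the 10 genes, a log2 fold change of -0.37 (SE 0.08, edgeR adjusted p = 0.00109), and was the member called lower on the log2(TPM + 1) scale (-0.21, limma-trend adjusted p = 0.0192). Nfkbie was at 6.29, 6.41 and 6.17 CPM and at 5.4, 6.03 and 5.95 CPM, from 89 to 120 reads per library. Those groups did not overlap, yet its log2 fold change of -0.12 had a 95% interval of -0.35 to 0.12 (edgeR adjusted p = 0.38).

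Nfkbiz was at 130, 127 and 129 CPM in WT and at 167, 154 and 160 CPM in the libraries labelled Git2-knockout. All of these were above WT, and the rise was 24.8%, a log2 fold change of 0.32 (SE 0.04, edgeR adjusted p = 1.26e-05). The ratio of Nfkbiz to Nfkbia TPM was 0.223, 0.214 and 0.217 in WT and 0.307, 0.329 and 0.327 in the other libraries. This RNA ratio was thus higher in all 3 libraries labelled Git2-knockout, and it was chosen after its values were seen. It keeps the trends with length and GC content, and the 2 genes differ in both. With both trends removed, the log2 fold changes of Nfkbiz and Nfkbia were 0.16 and -0.01. The summed TPM of Nfkbia, Nfkbib and Nfkbie was 2.34, 2.37 and 2.27 times that of the 4 subunits in WT and 2.35, 1.92 and 1.98 times in the other libraries. Replicate 1 lay within the WT range there.

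**Figure D3:**
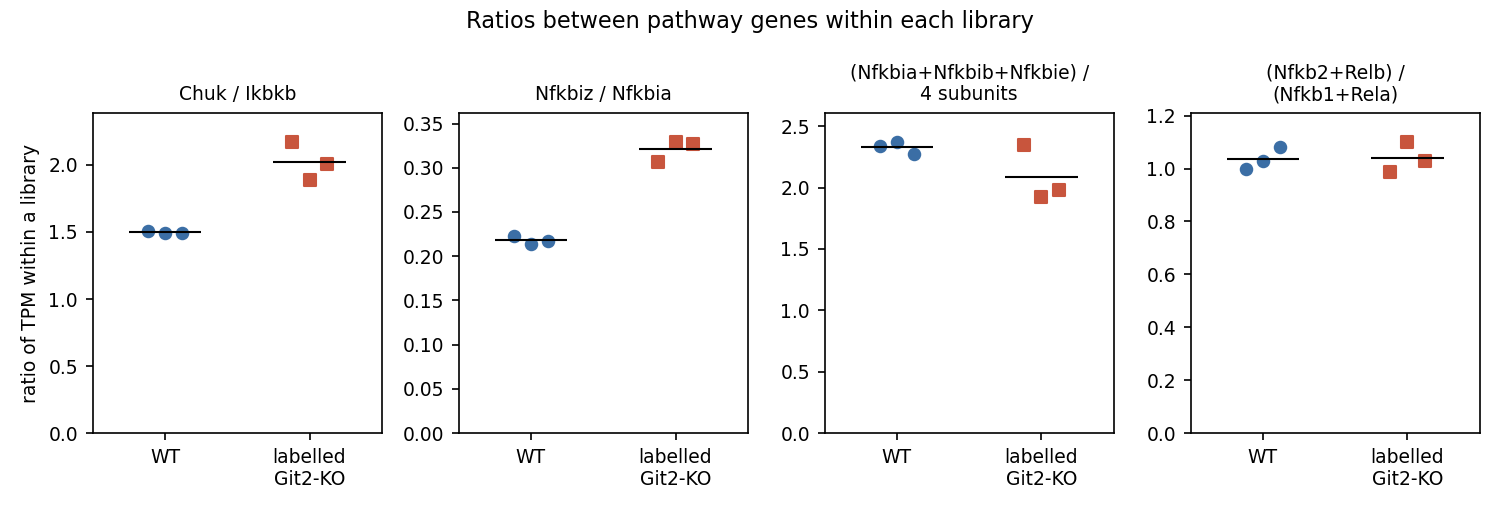
Ratios of TPM within each library, with points for libraries, lines for group means and axes from 0. The trends with length and GC content are not removed. The ratios of Chuk to Ikbkb and of Nfkbiz to Nfkbia are higher in all 3 libraries labelled Git2-knockout, while those of inhibitors to subunits and of alternative to canonical subunits overlap.

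Rises and falls alike were smaller once the trends with base composition and length were removed, and only the rises of Chuk and Nfkbiz kept their call. Over all tested genes the median log2 fold change went from 0.38 in the 10% of genes with the lowest GC content to -0.21 in the 10% with the highest, and from -0.33 in the shortest 10% to 0.31 in the longest. Nfkbib has a transcript GC content of 60.3%, above 96.4% of tested genes, and a length of 1334 bases, above 14.6% of them. Nfkbia is short, at 1530 bases, with 55.1% GC, and Rela has 58.8% GC. Chuk has 44.4% GC and 3459 bases, and Nfkbiz 49.2% GC and 3574 bases. With both trends removed, Nfkbia lay at -0.01 (95% interval -0.09 to 0.06), Nfkbib at -0.05 (-0.19 to 0.09) and Rela at -0.09 (-0.18 to 0.00), and edgeR called none of the 10 genes lower, with 0 also at an unadjusted p of 0.05, where 30.4% of all tested genes were called lower and 16.3% higher. In the same fit the log2 fold change of Chuk went from 0.47 to 0.18 (95% interval 0.10 to 0.26, edgeR adjusted p = 0.000449) and that of Nfkbiz from 0.32 to 0.16 (0.08 to 0.24, adjusted p = 0.00137), and Relb was called higher (0.14, adjusted p = 0.027). On log2(TPM + 1), limma-trend called 4 of the 10 genes higher and 1 lower, against 42.4% and 13.9% of all tested genes. DESeq2, with no trend removed, called 2 of the 10 genes higher and 3 lower, the same numbers as edgeR. Over all 13558 tested genes DESeq2 called 3222 higher and 3250 lower, where edgeR called 4013 and 3712. Whether the trends come from the samples or from the making of the libraries was not tested.

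**Figure D4:**
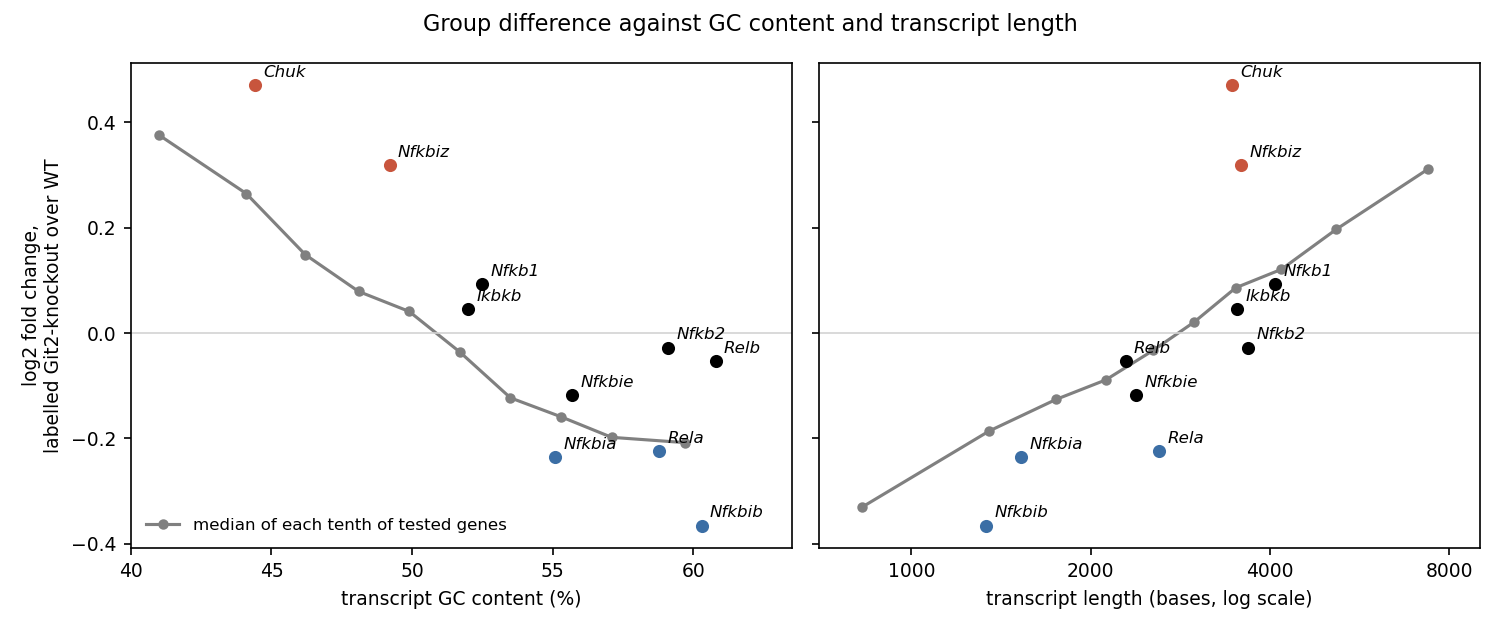
Log2 fold change of the 10 genes against transcript GC content (left) and against transcript length on a log axis (right). Red marks called rises, blue called falls and black genes not called, and the grey line joins the medians of successive tested genes in 10 equal bins. Chuk and Nfkbiz lie above both lines, and Nfkbia, Nfkbib and Rela lie below the line for length.

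**Figure D5:**
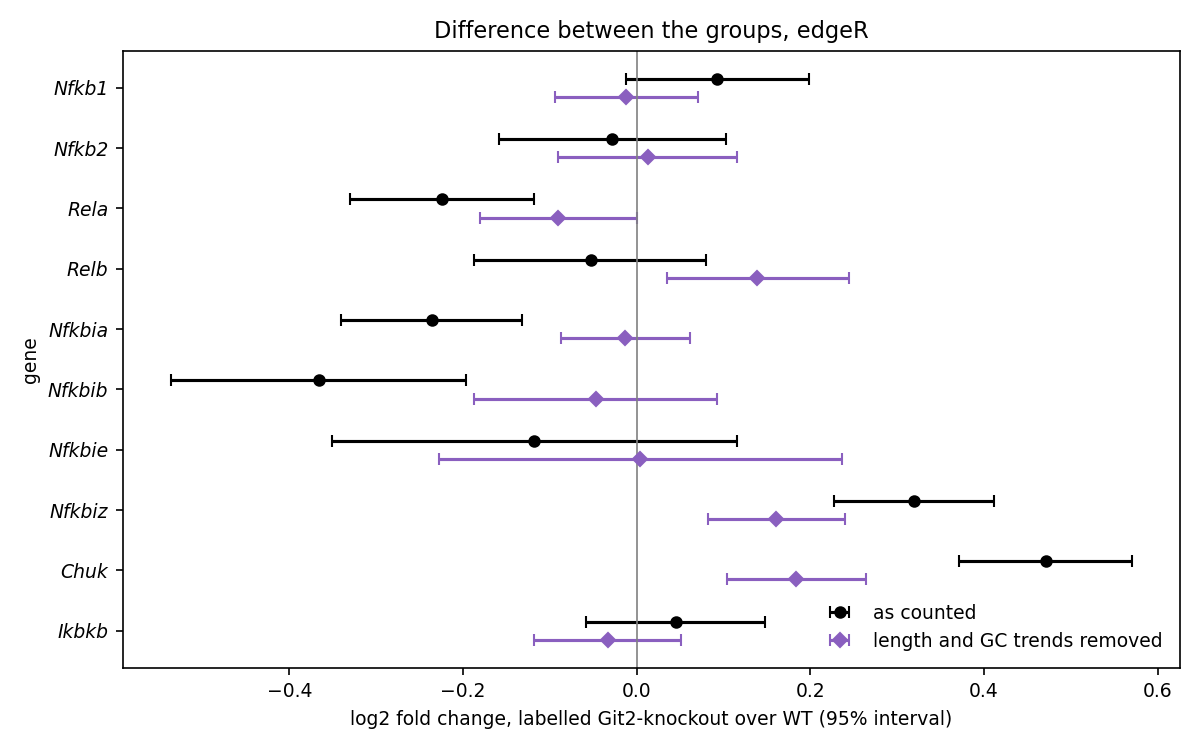
Log2 fold changes with 95% intervals by edgeR, as counted (black circles) and with length and GC trends removed (purple diamonds). The Chuk and Nfkbiz intervals stay above 0 in both, and the Nfkbia and Nfkbib intervals include 0 once the trends are removed.

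Other kinases of the family, and the adaptor Tank, did not pass edgeR's test. Tbk1 was at 94.0 ± 5.13 and 99.3 ± 2.82 CPM (edgeR adjusted p = 0.18), Ikbke at 55.6 ± 1.66 and 55.9 ± 1.74 CPM (0.889), their adaptor Tank at 21.3 ± 1.23 and 23.9 ± 2.63 CPM (0.101), and Map3k14, the NIK kinase that activates IKK-alpha, at 7.18 ± 0.464 and 6.02 ± 0.422 CPM (0.0594). The Map3k14 groups did not overlap, and its log2 fold change was -0.26 (95% interval -0.49 to -0.02), on 97 to 141 reads per library. Map3k14 was called lower by edgeR when Git2-knockout replicate 1 was left out (log2 fold change -0.34, adjusted p = 0.0212), with upper quartile scaling (-0.28, 0.0385) and after removal of the length trend (-0.41, 0.00408) or of both trends (-0.28, 0.0478). Tank was called in opposite directions: higher when replicate 3 of that group was left out (0.22, adjusted p = 0.0464), once the length trend was taken out (0.21, 0.0217) and in limma-trend on log2(TPM + 1) (0.32, 0.00454), and lower with the GC trend removed (-0.35, 0.00141) and with both removed (-0.20, 0.0188). In limma-trend Tbk1 (0.24, adjusted p = 0.00415) and Ikbke (0.15, 0.0375) were called higher too. Over all 8 other family genes 2 rose and 2 fell. With both trends removed 0 rose (0 also at an unadjusted p of 0.05 in edgeR) and 3 fell, and on log2(TPM + 1) 5 rose and 1 fell. Over all tested genes edgeR called 29.6% higher and 27.4% lower, and 16.3% and 30.4% with both trends removed. On log2(TPM + 1), limma-trend called 42.4% higher and 13.9% lower. The counts in this and the following lists are to be read beside these shares.

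Upstream of IKK, 10 of 28 adaptor and kinase genes rose and 8 fell, where 29.6% and 27.4% of all tested genes did. Their median log2 fold change was 0.08. With both trends removed 7 rose and 12 fell, and on log2(TPM + 1) 14 rose and 2 fell. Xiap, a ubiquitin ligase that also blocks caspases, rose from 84.1 ± 3.27 to 150 ± 0.771 CPM (log2 fold change 0.84, edgeR adjusted p = 4.56e-10). The ubiquitin-binding TAK1 partner Tab3 rose by 45% and its relative Tab2 by 20.7%, the latter called lower with both trends removed (-0.09, edgeR adjusted p = 0.0313). The TNF receptor adaptor Tradd fell from 34.2 ± 3.26 to 24.3 ± 0.79 CPM.

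Of the ubiquitin ligase genes that act on phosphorylated IkappaB, 2 of 8 rose and 1 fell (29.6% and 27.4% of all tested genes), with a median of 0.00. That balance turned with the scaling: 1 rose and 5 fell with both trends removed, and 4 rose and 1 fell on log2(TPM + 1). The conjugating enzyme Ube2d3 rose from 318 ± 2.24 to 411 ± 28.3 CPM, a call lost with the GC trend removed (0.09, edgeR adjusted p = 0.131), and Nedd8, the ubiquitin-like activator of cullin ligases, fell from 59.4 ± 1.02 to 41.1 ± 2.31 CPM. The adaptor Skp1 was at 260 ± 6.07 and 281 ± 14.3 CPM, and its call (edgeR adjusted p = 0.0349) was lost whichever library was left out. With the GC trend removed Skp1 was called lower (-0.21, adjusted p = 0.000657). Of 15 tested deubiquitinases and negative regulators 5 rose and 4 fell (29.6% and 27.4% of all tested genes), with a median of 0.08. With both trends removed 1 rose and 6 fell, on log2(TPM + 1) 8 rose and 1 fell, and without WT replicate 3 or Git2-knockout replicate 2 the falls numbered 2. Over all genes those 2 fits, in that order, called 3150 of 13691 and 3518 of 13790 lower. Pdlim2, which promotes the turnover of nuclear RelA, fell by 0.60 on the log2 scale, and Rnf11, a partner of the A20 complex, rose by 0.68. The A20 complex ligase Itch (0.39), the deubiquitinase Cyld (0.38), the A20 adaptor Tax1bp1 (0.15) and Tollip (0.12), an inhibitor of receptor signalling, were also called higher on the log2 scale. With both trends removed Cyld and Tax1bp1 were called lower, at -0.22 and -0.20 (edgeR adjusted p = 0.00046 and 5.21e-06), and Itch lay at -0.07. The Tollip call was lost with both trends removed (0.04, adjusted p = 0.217) and without WT replicate 2 (adjusted p = 0.0705), WT replicate 3 (0.0596) or Git2-knockout replicate 3 (0.125).

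Among receptors 5 of 14 rose and 4 fell (29.6% and 27.4% of all tested genes), with a median log2 fold change of 0.14. Ltbr, the lymphotoxin receptor that feeds the alternative branch, fell from 164 ± 5.45 to 135 ± 4.77 CPM, and the TNF receptor Tnfrsf1a from 121 ± 2.55 to 105 ± 1.51 CPM, the latter at -0.03 with both trends removed. The bacterial lipopeptide receptor Tlr2 rose from 5.21 ± 0.342 to 8.46 ± 0.979 CPM, and the death domain receptor Tnfrsf21 from 10.4 ± 0.822 to 14.9 ± 1.63 CPM. The interleukin receptor Il1r1 rose from 0.838 ± 0.168 to 2.32 ± 0.562 CPM, on 13 to 19 reads per library in WT and 29 to 46 in the others. Ligand genes were scarce. Of 6 tested, Il1a rose (3.49 ± 0.660 to 5.09 ± 0.113 CPM) and Tnf and Ltb fell (3.10 ± 0.0702 to 1.51 ± 0.773 CPM, and 0.908 ± 0.189 to 0.476 ± 0.0682 CPM), with a median of 0.01. Il1a lost its call with the GC trend removed (0.16, edgeR adjusted p = 0.378) and with both removed (0.31, 0.0884). Tnfsf13b was at 3.09 ± 1.02 and 2.54 ± 0.344 CPM (edgeR adjusted p = 0.287). The Ltb call (edgeR adjusted p = 0.0249) was lost without WT replicate 2 (0.101), WT replicate 3 (0.0676), Git2-knockout replicate 2 (0.0786) or Git2-knockout replicate 3 (0.0611), with both trends removed (0.21) and in DESeq2 (0.12). B cells are a known source of lymphotoxin beta, and the part of the B cell markers in this fall was not tested.

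Known target genes went both ways, with 8 of 28 tested genes higher and 11 lower, where 29.6% and 27.4% of all tested genes were. Their median log2 fold change was -0.01. The immunoglobulin receptor Pigr fell from 464 ± 3.88 to 216 ± 19 CPM. The acute-phase gene Saa3 fell from 3.42 ± 0.544 to 0.275 ± 0.145 CPM, from 57 to 76 reads per library in WT to 2 to 7 in the others. The protease Mmp9 rose from 3.21 ± 0.360 to 12.3 ± 1.02 CPM, and Ptgs2, the inducible cyclooxygenase, from 1.09 ± 0.251 to 4.81 ± 0.234 CPM. Ptgs2 had 15 to 23 reads per library in WT and 78 to 83 in the others. Irf1, an interferon-related transcription factor gene, was at 150 ± 0.896 and 152 ± 1.38 CPM (edgeR adjusted p = 0.735), and was called higher with both trends removed (0.18, adjusted p = 9.24e-05), with the GC trend removed (0.12, 0.0152) and in limma-trend on log2(TPM + 1) (0.19, 0.000759). Over the list, 8 genes were higher and 11 lower with both trends removed, 6 and 7 with the GC trend removed, 14 and 5 on log2(TPM + 1), and 5 and 7 of 29 without Git2-knockout replicate 3. Over all tested genes, 2673 were higher and 3728 lower of 13558 with the GC trend removed. Without Git2-knockout replicate 3 they were 3447 and 3449 of 13811. Cxcl5, Ccl2, Il6, Csf2 and Lcn2 had 0 to 12 reads per library and did not pass the filter on low counts.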

How the data were processed

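The 6 libraries were 3 WT and 3 labelled Git2-knockout, with groups and replicate numbers from the titles. HISAT, Bowtie2, RSEM and GRCm39 are named, without versions, per the submitters' processing notes. For the annotation and strand setting nothing is stated. The deposited estimated counts per gene, named read counts per the file headers, are unnormalized. TPM, scaled by transcript length and to 1000000 per library, and FPKM, scaled by length and library total, were deposited by the authors beside them, per the file headers. The authors' group averages were not used.

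Estimated counts were rounded and fitted in R 4.3.3 with edgeR 4.0.16 (filterByExpr, TMM, robust glmQLFit and glmQLFTest, two-sided, no covariates). This left 13558 of 18159 genes. The Benjamini-Hochberg adjustment ran over all of them. SE was taken as fold change (log2) over root F, and 95% intervals use the fit's degrees of freedom. Replicates differed by more than counting noise (chi-square per degree of freedom 1.58 to 7.15, and 29.93 to 42.73 between groups). That cannot tell separate animals or cultures from separate library preparations of the same RNA. Each library was counted as a replicate.

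The 17 alternatives were RLE and upper quartile scaling, DESeq2 1.42.0, limma 3.58.1 (limma-trend) on log2(TPM + 1), no filter, 5 CPM in 3 libraries, the replicate number as a block with and without trend removal, each library left out, and removal of length, GC or both trends (loess per library, span 0.5). Length was implied by counts and FPKM of at least 0.5 (93.1% of tested genes), and GC came from GENCODE transcripts (97.9%). Both were known for all 10 members. Steps were tested on simulated counts that held no trend of fold change with length or GC content, so that test does not show how well the trends are removed.

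The members, gene lists, tests and alternatives were chosen with earlier results of these data known. Named are the members, Git2, 8 other family genes, up to 4 called genes with the smallest p and the 2 highest per pathway list, and the 2 highest per marker list. Promoters are RefSeq's for GRCm38.p6. Protein sequences were not used here, and 1 gene named by this rule is not reported here.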

Additional observations from a re-analysis of the deposited data

How the results depend on the processing

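Chuk (log2 fold changes 0.18 to 0.62) and Nfkbiz (0.16 to 0.47) kept their direction and call under all 17 alternatives. The calls of Rela, Nfkbia and Nfkbib held under 13, 14 and 14 of them. Rela lost its call with the GC trend removed (-0.06, edgeR adjusted p = 0.307), with both trends removed (-0.09, 0.0955, and -0.09, 0.104 with the block) and on log2(TPM + 1) (-0.06, limma-trend adjusted p = 0.276). Nfkbia lost it with both trends removed (-0.01, edgeR adjusted p = 0.788, and 0.758 with the block) and on log2(TPM + 1) (-0.08, 0.121). Nfkbib lost it with the GC trend removed (-0.19, edgeR adjusted p = 0.066) and with both removed (-0.05, 0.599, and 0.539 with the block). Genes called higher fell from 4013 to 2673 with the GC trend removed and to 2215 with both removed (where 4127 were called lower), and genes called lower from 3712 to 1890 on log2(TPM + 1). On that scale the median of all genes was 0.14. Rises made up 51.9% of calls, 41.8% with the GC trend removed, 43.2% with the length trend removed, 34.9% with both removed and 75.3% on log2(TPM + 1). Members called lower numbered 1 with the GC trend removed, 0 with both removed (0 at an unadjusted p of 0.05, 3 by DESeq2 without removal) and 1 on log2(TPM + 1), where 4 were called higher. With a library left out, members called higher numbered 2 to 3 and lower 3 to 3, and all genes called higher 3430 to 4082 and lower 3150 to 4261.

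Among genes called in either fit, directions turned with both trends removed for Relb (0.14), Rel (-0.18), Ikbkg (-0.074), Tank (-0.20), Skp1 (-0.001), Tab2 (-0.092), Itch (-0.068), Cyld (-0.22) and Tax1bp1 (-0.20), with the GC trend removed for Tank (-0.35), Skp1 (-0.21), Tab2 (0.00) and Tax1bp1 (-0.20), and with the length trend removed for Ikbkg (-0.091) and Tollip (-0.004). Signs of genes called in neither fit turned too: with both trends removed for Nfkb1, Nfkb2, Nfkbie, Ikbkb, Tbk1 and Csf3r, with the GC trend removed for Nfkb2, Relb, Tbk1 and Csf3r, and with the length trend removed for Nfkb1, Ikbkb and Ikbke. Beyond the trends themselves the cause was not tested.

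The replicate numbers only name the libraries: deviations of same-numbered libraries correlated at 0.04, -0.03 and 0.06, and not every library correlated best with its own number. With the replicate number as a block, 3863 genes were called higher and 3578 lower, and 2 and 3 of the members. With the block and both trends removed, 2175 genes were called higher, 3 members higher and 0 lower, and the values were 0.14 for Relb, -0.18 for Rel, -0.073 for Ikbkg, -0.20 for Tank, -0.001 for Skp1, -0.092 for Tab2, -0.068 for Itch, -0.22 for Cyld and -0.20 for Tax1bp1. Nfkbie rests on about 100 reads per library, which limits what could be detected for it.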
